A study of Rattus norvegicus with 6 samples.

Results

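Il6, Lif, Stat3 and Socs3 cover 3 steps of one signalling pathway, and they were chosen by identifier from the table of all genes. The 4 genes (ENSRNOG00000010278 for Il6, ENSRNOG00000007002 for Lif, ENSRNOG00000019742 for Stat3 and ENSRNOG00000002946 for Socs3) were all present among the 19133 genes in the table. The pairing of these identifiers with symbols came with the list of genes, since the table itself holds identifiers only. Expression was measured by RNA sequencing in rat tenocytes, the resident cells of tendon, which were released with collagenase from Achilles tendons of Sprague–Dawley rats and grown in culture. The control group (n = 3 libraries) received fresh complete medium, and the IL−1β group (n = 3 libraries) received complete medium with interleukin-1 beta at 50 ng/mL, both for 24 h. All cells were primary cells in serum-containing medium, without the matrix or load of a tendon, and 1 time point was measured. The paper's methods describe its data in general as coming from independent experiments, without saying for these libraries whether the cells came from separate animals. The p-values therefore rest on variation between these libraries, which may not be variation between animals. Markers of tenocytes and of other cell types were not analysed here, so the label of the cells was not checked.

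Interleukin-6 and leukemia inhibitory factor (Lif) are secreted cytokines of the IL-6 family. Each binds a receptor complex that contains the shared subunit gp130, and the kinases attached to this complex phosphorylate the transcription factor Stat3, which then enters the nucleus. Socs3 is switched on by Stat3, binds gp130 and its kinases and dampens the signal, which makes it both a target and an inhibitor of the pathway. Fibroblast-like cells, tendon cells among them, release Il6 in response to interleukin-1, whose own signal runs mainly through NFκB and MAP kinases. The receptors, the kinases and the other ligands of the family were not analysed here.

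The values are FPKM (fragments per kilobase of gene, scaled to the mapped fragments of the library), which can be compared between genes because gene length is divided out. Whole read numbers were recovered from the steps of these values, and between 36507195 and 43099396 reads were found per library. A floor of 3 reads, which covers counting error only, lay between 0.0157 and 0.0949 FPKM for the 4 genes, below every value they had. Libraries with the number 1 of both groups lay apart from the other 4 on the second principal component, which carried 8.46% of the variance, and the groups were separated by the first, which carried 72.6%. The reads of no 2 libraries of a group agreed within sampling noise (chi-square per gene between 11.2 and 26.8).

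The start of the Il6 gene is shown because Il6 changed most of the 4 genes, and that of Stat3 because it changed least. The sequences are from RefSeq (GRCr8 build), where 3 of the 4 genes matched the promoter table by symbol, and Lif was the one without an entry. For Il6, the 250 bases before the start of the gene lie on the minus strand at chr4:5894576-5894825. Capitals mark, from left to right, matches to a cAMP response element, a C/EBP element and an NF-kB element.
Il6: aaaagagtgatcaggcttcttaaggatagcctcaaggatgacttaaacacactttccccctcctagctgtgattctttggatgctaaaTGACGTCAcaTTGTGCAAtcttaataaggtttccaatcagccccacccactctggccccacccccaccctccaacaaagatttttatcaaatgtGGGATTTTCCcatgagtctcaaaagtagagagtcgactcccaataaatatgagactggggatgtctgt
For Stat3, the table's start lies 154 bases inside the span of the gene, so only the 96 bases outside the span are shown, from the minus strand at chr10:86363514-86363609. No capitals appear because none of the motifs matched.
Stat3: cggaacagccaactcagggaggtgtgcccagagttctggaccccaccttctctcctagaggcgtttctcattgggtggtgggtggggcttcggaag

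The motifs were searched on both strands in the 250 bases before the start of the 33469 rat entries in the table. The NF-kB consensus was found in 3.54% of these windows, and in Il6 it covered bases 68 to 59 before the start. The cAMP response element (TGACGTCA) was found in 1.59% and in Il6 covered bases 162 to 155, with no overlap with the C/EBP element (TTGCNNAA, in 9.22% of windows), which covered bases 152 to 145. The STAT element (TTCNNNGAA) was found in 7.67% of windows and the AP-1 element (TGANTCA) in 6.34%. Neither was found in the windows of Il6, Stat3 or Socs3. The window of Socs3 lies wholly inside the gene, since the table's start is 1207 bases within the span. Bases before the Socs3 gene were therefore not searched, and the 1 NF-kB match in its window is not printed. For Stat3 only 96 bases of the window lie outside the gene. A match is a match of letters and not a bound site.

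Il6 rose from the lowest level of the 4 genes to the highest. Control libraries 1, 2 and 3 had 1.49, 2.12 and 1.30 FPKM of Il6, from 60, 81 and 57 reads. IL−1β libraries 1, 2 and 3 had 375.0, 327.5 and 347.2 FPKM, from 14569, 14795 and 13362 reads. Every IL−1β library was far above every control library, and the lowest of them was 154.7 times the highest control. The mean level was 1.64 ± 0.427 FPKM without and 349.9 ± 23.9 FPKM with IL−1β (SD, n = 3 libraries each). The log2 fold change, on the log2(scaled FPKM + 0.1) scale, was 7.63 with a standard error of 0.16 (adjusted p = 1.8e-07, limma with Benjamini-Hochberg adjustment over 12408 tested genes), which corresponds to 197.4-fold with a 95% confidence interval of 152.0 to 256.4. The ratio of the mean FPKM values, with nothing added, was 214.0. With a pseudocount of 1 in place of 0.1 the log2 fold change was 7.02, and with 0.01 it was 7.70, since a larger pseudocount weighs most on the low control values. Il6 ranked 15 among the tested genes by log2 fold change, and its rank by mean FPKM went from 10402 in the control group to 189 in the IL−1β group.

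**Figure D1:**
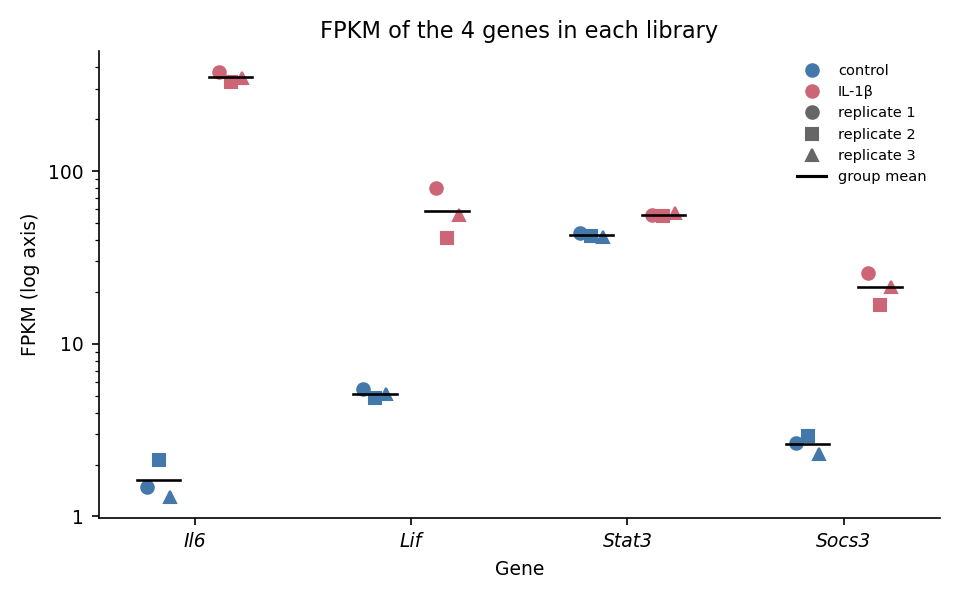
FPKM (log axis) of Il6, Lif, Stat3 and Socs3 in each of the 6 libraries, with blue for control and red for IL−1β, a marker shape for each replicate number and a black line at the group mean. The control values of Il6 span 1.30 to 2.12 FPKM and its IL−1β values 327.5 to 375.0, while Stat3 moves only from between 41.7 and 43.9 to between 55.1 and 57.4.

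Lif, the other cytokine, rose as well, by a smaller factor. Controls 1, 2 and 3 had 5.50, 4.83 and 5.10 FPKM of Lif (473, 394 and 475 reads). With IL−1β, libraries 1, 2 and 3 had 79.9, 40.9 and 55.4 FPKM (6610, 3938 and 4545 reads). The groups did not overlap, but IL−1β library 1 was 1.95 times IL−1β library 2. The mean level was 5.14 ± 0.333 FPKM without and 58.7 ± 19.7 FPKM with IL−1β (SD, n = 3 libraries each). The log2 fold change was 3.38 with a standard error of 0.22 (adjusted p = 2.6e-05, limma with Benjamini-Hochberg adjustment), or 10.4-fold with a 95% confidence interval of 7.23 to 14.98, and it ranked 114 among the tested genes.

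Socs3, the feedback inhibitor, rose by a factor near that of Lif from a lower level. Control libraries 1, 2 and 3 had 2.67, 2.91 and 2.30 FPKM (89, 92 and 83 reads), and IL−1β libraries 1, 2 and 3 had 25.6, 16.7 and 21.4 FPKM (820, 623 and 679 reads). All 3 IL−1β libraries were above the controls, the lowest at 5.74 times the highest control. The means were 2.63 ± 0.308 and 21.2 ± 4.43 FPKM (SD, n = 3 each). The log2 fold change was 2.89 with a standard error of 0.17 (adjusted p = 1.3e-05, limma with Benjamini-Hochberg adjustment), or 7.44-fold with a 95% confidence interval of 5.68 to 9.74, at rank 146. The confidence intervals of Lif and Socs3 overlapped, and the difference between their fold changes was not tested.

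Stat3, the transcription factor, was already abundant in untreated cells and changed little at the RNA level. Controls 1, 2 and 3 had 43.9, 42.0 and 41.7 FPKM of Stat3 (7511, 6811 and 7717 reads). With IL−1β, libraries 1, 2 and 3 had 55.6, 55.1 and 57.4 FPKM (9147, 10547 and 9357 reads). The groups did not overlap, and the lowest IL−1β library was 1.26 times the highest control. The means were 42.5 ± 1.19 and 56.0 ± 1.20 FPKM (SD, n = 3 each), and the log2 fold change was 0.34 with a standard error of 0.04 (adjusted p = 0.00084, limma with Benjamini-Hochberg adjustment). This is 1.27-fold with a 95% confidence interval of 1.18 to 1.36, so the rise passed the test against no change but lay below a 2-fold change. It depended little on the scaling between libraries, with 0.40 when the deposited FPKM were left unscaled, where the median of all tested genes was 0.058, and 0.31 under quantile normalization, where that median was −0.051. RNA levels do not show the phosphorylation of the Stat3 protein, through which the pathway acts.

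By an adjusted p under 0.05 and a log2 fold change over 1, 3 of the 4 genes (Il6, Lif and Socs3) were called higher in the IL−1β group, where 5.37% of all tested genes were. By an adjusted p under 0.05 alone, all 4 were higher, against 19.3% of all tested genes. Groups that did not overlap, with the IL−1β values on the upper side, were found for all 4 and for 25.5% of the tested genes. The 4 genes had a median log2 fold change of 3.14, against 0.00066 over the tested genes. The list was put together with the results of these libraries known, so these counts describe the 4 genes and are not evidence about the pathway.

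**Figure D2:**
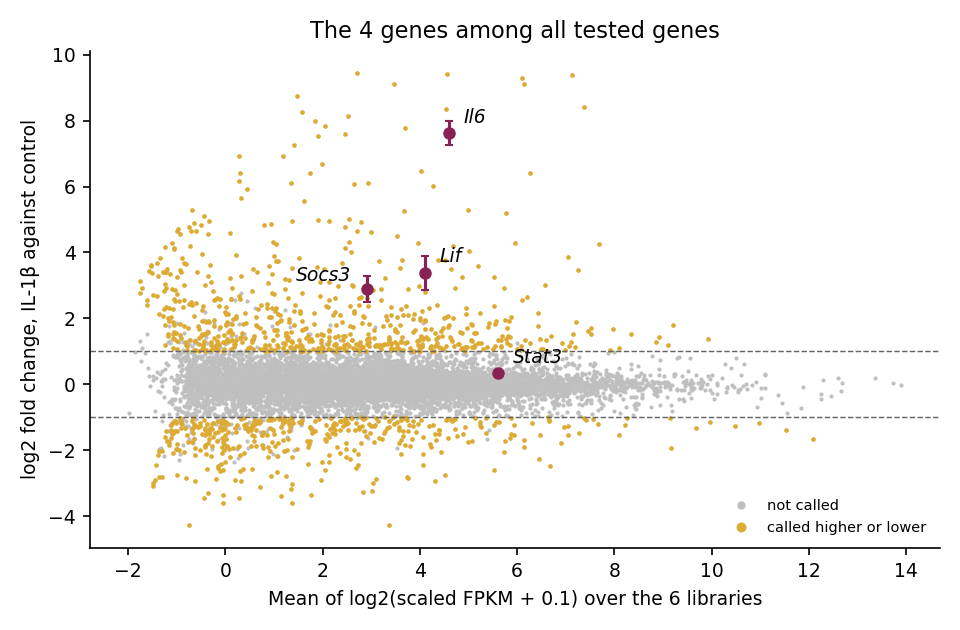
The log2 fold change (IL−1β against control) of each of the 12408 tested genes against its mean log2(scaled FPKM + 0.1) over the 6 libraries, with genes called higher or lower in yellow, other genes in grey, and dashed lines at a 2-fold change. The 4 genes are drawn in purple with 95% confidence intervals. Il6 stands at 7.63, Lif at 3.38 and Socs3 at 2.89, and Stat3 at 0.34 lies inside the dashed lines.

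In bulk RNA, a change in the number of expressing cells and a change in RNA per cell cannot be told apart, and this holds for every level given here. The order of the levels on the FPKM scale, which rests on the gene lengths used, differed between the groups. In all 3 control libraries the order was Stat3, Lif, Socs3 and Il6, and no 2 neighbours overlapped. The mean level of Stat3 was 8.27 times that of Lif, Lif 1.96 times Socs3, and Socs3 1.61 times Il6. In the IL−1β group Il6 came first in every library, at 5.96 times the mean of Lif, and Socs3 came last, with Stat3 at 2.64 times Socs3. Lif and Stat3 could not be ordered there, since their values overlapped and Lif was above Stat3 in 1 of 3 libraries. Of the summed FPKM of the 4 genes, Il6 made up 2.59% to 4.08% per library without IL−1β and 69.96% to 74.39% per library with it.

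Ratios of the FPKM of 2 genes within a library do not depend on the scaling between libraries, and 2 of them were compared, one for the ligands and one for the inhibitor and its activator. In controls 1, 2 and 3 the ratio of Il6 to Lif was 0.270, 0.438 and 0.256. With IL−1β it was 4.70 in library 1, 8.003 in library 2 and 6.26 in library 3. Lif therefore had more FPKM than Il6 in every control library and less in every IL−1β library. With 0.1 added to each scaled FPKM value, the log2 ratio went from −1.62 ± 0.41 to 2.62 ± 0.38 (SD, n = 3 each), a difference of 4.25 (two-sided exact permutation test, p = 0.1, also after adjustment over the 2 ratios, the smallest p that 3 libraries against 3 can give). The log2 of the ratios as printed, without the added 0.1, went from −1.68 ± 0.43 to 2.63 ± 0.39, a difference of 4.31.

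In controls 1, 2 and 3 the ratio of Socs3 to Stat3 was 0.0608, 0.0693 and 0.0552. With IL−1β it was 0.460 in library 1, 0.303 in library 2 and 0.372 in library 3. Stat3 thus exceeded Socs3 by a factor of 14.4 to 18.1 without IL−1β and of 2.17 to 3.30 with it, per gene length. With 0.1 added as before, the log2 ratio went from −3.97 ± 0.16 to −1.42 ± 0.30 (SD, n = 3 each), a difference of 2.56 (two-sided exact permutation test, p = 0.1, also after adjustment). The difference was 2.60 for the log2 of the ratios as printed.

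**Figure D3:**
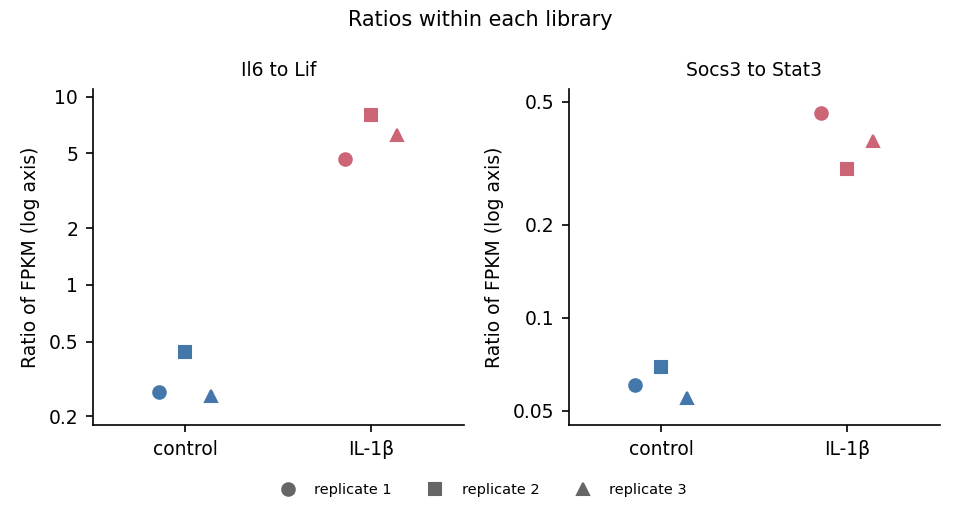
Ratio of FPKM of Il6 to Lif (left) and of Socs3 to Stat3 (right) within each library, on log axes, with blue for control, red for IL−1β and a marker shape for each replicate number. The 3 IL−1β libraries lie above the 3 control libraries in both panels, at 4.70 to 8.003 against 0.256 to 0.438 on the left and 0.303 to 0.460 against 0.0552 to 0.0693 on the right.

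The 4 genes differed in how much they varied between libraries of one group. In the IL−1β group the coefficient of variation was 33.5% for Lif, 20.9% for Socs3, 6.82% for Il6 and 2.15% for Stat3 (n = 3). Counting error was between 1.23% and 1.59% per library for Lif and between 3.49% and 4.01% for Socs3, so the spread of both was larger than the counting of reads gives. On the log2 scale, 95.4% of the tested genes had a smaller SD than Lif in the IL−1β group, 91.0% a smaller SD than Socs3, 56.5% a smaller SD than Il6 and 5.93% a smaller SD than Stat3. In the control group the largest coefficient of variation was that of Il6, 26.1%. This was above the counting error of 11.1% to 13.2% that its 57 to 81 reads carry each. On the log2 scale, 91.7% of the tested genes had a smaller SD than Il6 in the control group, 78.3% than Socs3, 59.4% than Lif and 29.5% than Stat3.

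Il6, Lif and Socs3 shared the order of the IL−1β libraries, with library 1 the highest, library 3 between and library 2 the lowest. The same order was found in 44.3% of the 666 genes called higher, where it was the most frequent of the 6 possible orders. On the log2 scale Lif deviated from the mean of the group by 0.52 in library 1 and −0.47 in library 2, and Socs3 by 0.31 and −0.33, whereas the middle 50% of the genes called higher lay between 0.01 and 0.24 in library 1 and between −0.19 and 0.002 in library 2. Without IL−1β library 1 the log2 fold changes were 7.56 for Il6, 3.12 for Lif, 2.74 for Socs3 and 0.33 for Stat3. With replicates 2 and 3 of both groups only, they were 7.52, 3.18, 2.76 and 0.37, and the same 3 genes were called. What set IL−1β library 1 apart was not tested.

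**Figure D4:**
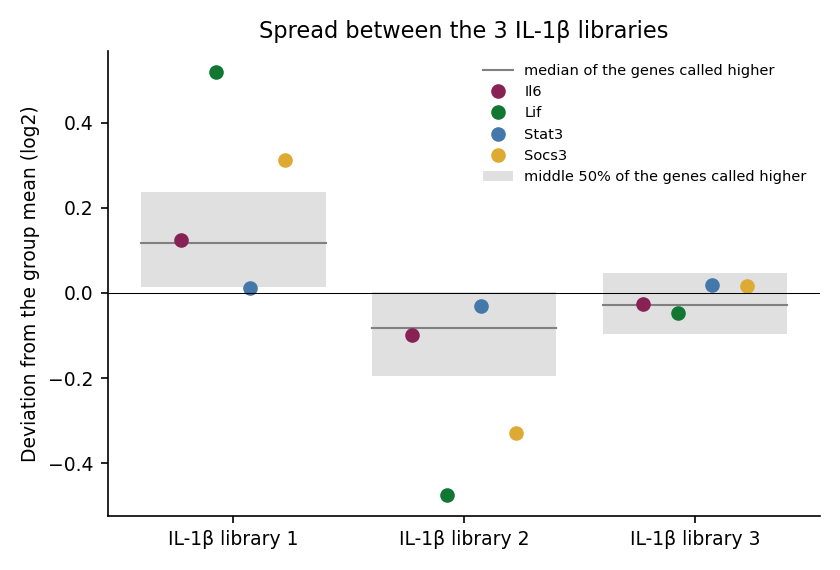
Deviation of each IL−1β library from the mean of the 3 IL−1β libraries, as log2 values, for Il6, Lif, Stat3 and Socs3 (points), with the middle 50% (grey boxes) and the median (grey lines) of the 666 genes called higher. Lif and Socs3 lie above the box in library 1 and below it in library 2, and Il6 lies close to the median in both.

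For a gene with a pattern like that of Il6, the centred log2 values over the 6 libraries were compared with those of all other tested genes by Euclidean distance. The closest was ENSRNOG00000016945, at a distance of 0.68, with 0.185 ± 0.118 FPKM in controls and 66.8 ± 22.4 FPKM with IL−1β (SD, n = 3 libraries each, log2 fold change 7.85 with a standard error of 0.32). It was picked for its pattern in these same libraries, so its large fold change followed from the choice. Its level was below that of Il6 in both groups, and its controls of 0.122, 0.322 and 0.113 FPKM were about the size of the added 0.1. These controls were below the filter of 0.5 FPKM, so the gene was tested only through its IL−1β libraries. The log2 difference of ENSRNOG00000016945 was 5.76 with a pseudocount of 1 and 8.47 with 0.01, and its place by distance to Il6 went from 1 to 10 and 13, so its closeness to Il6 rested on the pseudocount. The gene closest to Stat3 was ENSRNOG00000006004, at a distance of 0.03, which went from 17.9 ± 0.409 to 23.9 ± 0.704 FPKM (SD, n = 3 each, log2 fold change 0.35 with a standard error of 0.05). Its fold change followed from the choice in the same way. It remained the closest to Stat3 with a pseudocount of 1 and of 0.01. The table does not pair these 2 identifiers with names.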

How the data were processed

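Libraries from control and IL−1β tenocytes were made from polyadenylated RNA and sequenced as read pairs on a DNBSEQ-T7 instrument. The submitters' processing notes name HISAT2 and featureCounts, and the paper an in-house pipeline, while versions, genome build, annotation and strand setting are not given in the sources used here, so reads of overlapping genes cannot be separated. The authors deposited FPKM values, 1 column per library, and replicates were not pooled. Groups and replicate numbers came from the sample labels.

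In Python 3.11.15 (numpy 2.4.6, pandas 2.3.3), read numbers were worked out from the FPKM steps (values under 0.15 FPKM for relative totals, whole gene lengths for the absolute scale), within a tolerance of 0.005 read plus 3e-08 of the reads. They made up between 99.69% and 99.70% of the library totals, which were themselves inferred from the same FPKM steps.

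Each library was divided by its median-of-ratios size factor and put on a log2 scale after adding 0.1. Genes reaching 0.5 FPKM in 3 or more libraries were fitted without a block in R 4.3.3 with limma 3.58.1 (two-sided moderated test, intensity trend, Benjamini-Hochberg adjustment), which kept 12408 genes and all 4 described here. A gene was called where the adjusted p was below 0.05 and the log2 fold change exceeded 1 in size. The recovery of reads and the limma fit were tested on simulated data. The simulation of the fit changed fewer genes than were called here, so it did not test the scaling under so broad a change. Where a library was left out, or replicates 2 and 3 alone were used, the filter asked for 2 libraries.

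The 4 genes, the motifs and the tests were chosen with earlier results of these libraries known. Named genes were these 4 and the nearest in pattern to Il6 and to Stat3. Tests planned for other genes of the pathway and for cell type markers were not run, since 0 of the 19133 identifiers matched the table of rat genes (GRCr8). Alternatives were other pseudocounts, filters and scalings, no trend, a test against 2-fold (TREAT), the replicate block, limma-voom on recovered reads and each library left out. The fit of replicates 2 and 3, the ratios without a pseudocount and the other pseudocounts for the nearest genes were added after the data were seen. Figures were drawn with matplotlib 3.10.9.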

Additional observations from a re-analysis of the deposited data

How the results depend on the processing

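In 17 alternative analyses (the one limited to replicates 2 and 3 was chosen after seeing the data) Il6, Lif and Socs3 stayed called higher and Stat3 stayed higher and below 2-fold. The log2 fold changes ranged from 7.02 to 7.81 for Il6, from 3.12 to 3.62 for Lif, from 2.55 to 3.06 for Socs3 and from 0.31 to 0.40 for Stat3, and leaving out 1 library gave 7.48 to 7.81, 3.12 to 3.62, 2.74 to 3.06 and 0.32 to 0.37. The highest adjusted p of Stat3 in limma was 0.0067, apart from the TREAT test, where it was 1 because that test asks for more than 2-fold. The number of all genes called was 1078 in the main fit and rose to 1334 without a filter on low values. It fell to 697 with a pseudocount of 1 and to 520 with the TREAT test, which called 358 genes higher in place of 666. Of all genes called in the main fit 61.8% were higher, against 68.8% with the TREAT test and 55.2% with quantile normalization. Among genes with an adjusted p under 0.05, 50.2% were higher, 61.1% when the deposited FPKM were left unscaled and 41.1% under quantile normalization. With a pseudocount of 1 the change in the log2 ratio of Il6 to Lif was 3.84 in place of 4.25 and that of Socs3 to Stat3 was 2.22 in place of 2.56, as the pseudocount adds most to the low control values.

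The labels do not say that libraries of one number share an animal or culture, so the main fit had no block. Deviations of same-numbered libraries correlated at 0.094, 0.021 and 0.034, and those of differently numbered libraries at −0.087 to 0.061. These values do not decide whether the numbers pair the libraries. With the replicate block the log2 fold changes were the same by construction (7.63 for Il6), the adjusted p-values were 1.2e-05 for Il6, 0.0001 for Lif, 0.00021 for Socs3 and 0.004 for Stat3 in limma, and 1080 genes were called. Depth limits the control values of Il6 and Socs3 most, with 57 to 92 reads per library.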
